A study of Mus musculus with 12 samples.

Results

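Matrix metalloproteinases (MMPs) and their tissue inhibitors (TIMPs) were followed in fibroblasts cultured on alginate gels, as the RNA of 10 genes chosen by name: Mmp2, Mmp3, Mmp9, Mmp11, Mmp13, Mmp14, Mmp19, Timp1, Timp2 and Timp3. They are 10 of the 33246 genes in the count table, and were chosen with earlier results of these data known. On 2-kPa gels, 7 of the 10 were lower on the viscoelastic than on the elastic gel, where 11.1% of all tested genes were. Without 1 of the elastic samples 3 of the 7 stayed called. Of 8 other tested MMP and TIMP genes, 1 was higher and 1 lower in that comparison. On 20-kPa gels 1 of those 7, Mmp9, was lower and another, Mmp11, was higher, and Timp1 and Timp3 were lower. There 33.5% of all tested genes were called, and the calls of Mmp9 and Timp3 each stood in 8 of 12 fits without a sample. All 10 passed the filter on low counts, so none was too low to test, but Mmp9 rested on 38 to 263 reads a sample.

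MMPs are zinc-dependent proteases that cleave the proteins of the extracellular matrix, and in skin fibroblasts they take part in turnover of collagen, wound repair and migration. Most are secreted as inactive proenzymes and some are held in the cell membrane, so the level of their RNA is not a level of active protease. TIMPs bind the active site of MMPs and block it, and Timp2 also takes part in the activation of the Mmp2 proenzyme at the cell surface by the membrane protease Mmp14.

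The cells were primary fibroblasts from the ears of mice 1 month old, taken at passage 2 and grown for 48 h on RGD-coupled alginate gels before polyadenylated RNA was sequenced. There were 4 groups of 3 samples: 2-kPa elastic, 20-kPa elastic, 2-kPa viscoelastic and 20-kPa viscoelastic gels. The elastic gels were crosslinked covalently with adipic acid dihydrazide and the viscoelastic, slow-relaxing gels ionically with calcium, so stress relaxation and the crosslinker cannot be told apart. Within a gel type, stiffness was set by the concentration of the crosslinker, so stiffness and that concentration cannot be told apart either. The methods name C57BL/6 and Tau-EGFP reporter mice as sources of ear fibroblasts; which of them gave these cells, and from how many animals, is not stated, so the p-values measure the spread between these samples.

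Totals ran from 36626221 to 43612804 counts a sample, and replicates of a group, taken in pairs, had a mean chi-squared of 11.2 to 55.5 over genes with at least 20 reads, where counting noise by itself gives 1. All 10 fibroblast markers were high in each sample, with a summed level of 24787 to 30143 CPM (counts scaled to library size with edgeR's TMM factors). Cartilage genes were also high: 7 of 8 chondrocyte markers passed the filter, Col2a1 averaged 2951, 2417, 2965 and 3023 CPM in the 2-kPa elastic, 20-kPa elastic, 2-kPa viscoelastic and 20-kPa viscoelastic groups, and Matn1 had 0 to 8 counts. In bulk RNA, fewer cells of a type and less RNA per cell cannot be told apart. Summed markers of leukocytes reached 13.2 CPM at most, those of keratinocytes 5.07, of endothelial cells 3.51, of Schwann cells 4.23, of melanocytes 1.26 and of skeletal muscle 0.451.

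Per kilobase of exon, the inhibitors stood at the top of the group. Averaged over the 12 samples, Timp1 reached 645 CPM per kb, Timp2 494 and Timp3 208. Mmp2, gelatinase A, which cleaves type IV and denatured collagens, was the most abundant protease at 196 CPM per kb, and Mmp14, the membrane type 1 MMP that cleaves fibrillar collagen at the cell surface, followed at 108. Stromelysin-1, encoded by Mmp3, reached 68.8 CPM per kb. The other proteases were lower: Mmp19 and Mmp11 stood at 19.2 and 16.4, and the collagenase-3 gene Mmp13 at 6.77. Gelatinase B, encoded by Mmp9, stood at 0.692 CPM per kb, the lowest of the 10. Exon lengths came from the GENCODE M21 annotation of mm10.

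**Figure D1:**
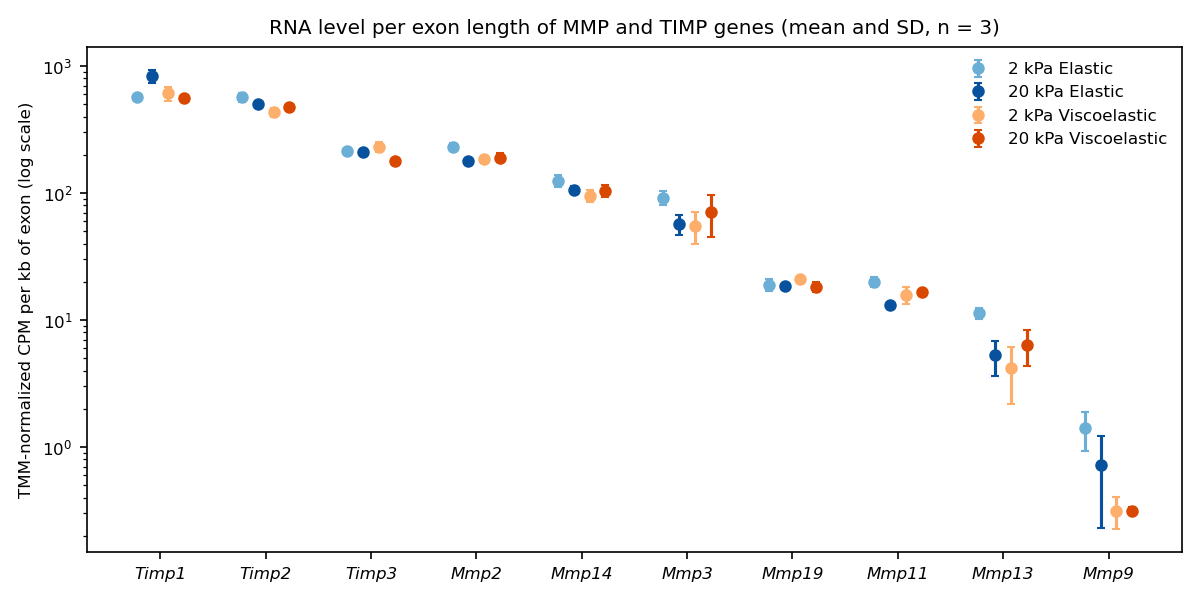
Mean TMM-normalized CPM per kilobase of exon (log axis) for the 10 genes in each gel group, with error bars of 1 SD over 3 samples. Timp1 and Timp2 average 645 and 494 over all samples and Mmp9 averages 0.692, and the genes stand in order of their mean over all samples, highest at the left.

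Genes were tested with edgeR's quasi-likelihood test over all 12 samples and called at a Benjamini-Hochberg adjusted p under 0.05 over 14542 genes. The comparison of viscoelastic with elastic gels at 2 kPa asks how RNA levels differ on a soft matrix that relaxes: 7 members were lower and none higher, against 11.1% of all tested genes lower, 8.77% higher and 19.9% called either way. Those 7 were Mmp2, Mmp3, Mmp9, Mmp11, Mmp13, Mmp14 and Timp2, and in each of them every viscoelastic sample lay below every elastic sample, as the groups of 36.3% of all tested genes did not overlap either. The members' median log2 fold change was -0.36, against -7.5e-05 over all genes. Without replicate 1 of the 2-kPa elastic group, the highest of its group for all 7 genes, 3 members stayed called: Mmp9, Mmp13 and Timp2. Of the 7 tested cartilage markers, 3 fell as well, Acan, Col11a2 and Chad (log2 fold changes of -0.47, -0.76 and -1.04), none rose (Col2a1 0.0069, Col9a1 -0.15, Matn3 0.094 and Cnmd 0.15 did not pass), and their summed CPM ran from 5496 to 7055 on elastic and from 5014 to 6630 on viscoelastic gels. The part of these markers in the members' results was not tested.

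The same comparison at 20 kPa called 4 members, where 33.5% of all tested genes were called. Mmp11 was higher, beside 17.4% of all genes, and Mmp9, Timp1 and Timp3 were lower, beside 16.1%. Their median log2 fold change was -0.026, against 0.016 over all genes. The samples of 5 members did not overlap, as for 49.9% of all genes, since Timp2 also lay lower in each viscoelastic sample without passing the test. Leaving out replicate 2 or replicate 3 of the 20-kPa viscoelastic group left 2 members called, Mmp11 and Timp1. Of the 7 tested cartilage markers 3 rose here, Col9a1, Matn3 and Cnmd, by log2 fold changes of 0.87, 0.56 and 0.94. Col2a1 (0.32) and Col11a2 (0.29) did not pass, nor did Acan (-0.012) and Chad (-0.20), and the markers had a summed level of 4717 to 4738 CPM on elastic and of 5282 to 6929 CPM on viscoelastic gels.

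Stiffness was compared within each gel type. From 2 to 20 kPa on elastic gels, Mmp2, Mmp11 and Mmp13 fell and Timp1 rose, so 4 members were called beside 14% of all genes (6.81% higher and 7.14% lower), and the groups of 6 members did not overlap beside 35.6%. The members' median log2 fold change was -0.30, against -0.0083 over all genes. Of the 7 tested cartilage markers 5, Acan, Col9a1, Col11a2, Chad and Cnmd, also fell on the stiffer elastic gel, by 0.50, 0.69, 0.93, 0.55 and 0.53 on the log2 scale, and their part was not tested. On viscoelastic gels the same change of stiffness called 1 member, Timp3, beside 2.28% of all genes (1.58% higher and 0.695% lower), and the groups of Timp2 and Timp3 did not overlap beside 22.3%. That call was lost without replicate 1 of the 2-kPa viscoelastic group or any 1 replicate of the 20-kPa viscoelastic group, which left 0 members called. The comparisons share samples: the 2-kPa elastic group, where 7 members had their highest mean, enters both the gel comparison at 2 kPa and the stiffness comparison on elastic gels.

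The difference between the stiffness effects of the gel types was tested as an interaction. It was called for Mmp2, Mmp11, Mmp13 and Timp1, 4 of 10 members beside 7.56% of all genes, and was higher for 3 (4.45% of all genes) and lower for Timp1 (3.12%). It was also called for 4 of the 7 tested cartilage markers, all higher, Col9a1 (1.01), Col11a2 (1.06), Chad (0.84) and Cnmd (0.79), and their part was not tested. Averaged over both stiffnesses, 5 members were lower on viscoelastic gels, Mmp9, Mmp13, Mmp14, Timp1 and Timp2, beside 20.4% of all genes lower, 19.6% higher and 40% called. Among them only Mmp9 was called at each stiffness. At 2 and 20 kPa the log2 fold changes were -1.44 and 0.27 for Mmp13 and -0.38 and -0.021 for Mmp14. They were 0.090 and -0.56 for Timp1 and -0.39 and -0.057 for Timp2. For Mmp9 and Timp2, all 6 viscoelastic samples lay below all 6 elastic ones, beside 12.4% of all genes that did not overlap. Of the 5, Mmp9, Timp1 and Timp2 stayed called whichever sample was left out, and 3 members were called without replicate 1 or 2 of the 2-kPa elastic, replicate 3 of the 20-kPa elastic, replicate 3 of the 2-kPa viscoelastic, or replicate 1 or 3 of the 20-kPa viscoelastic group.

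**Figure D2:**
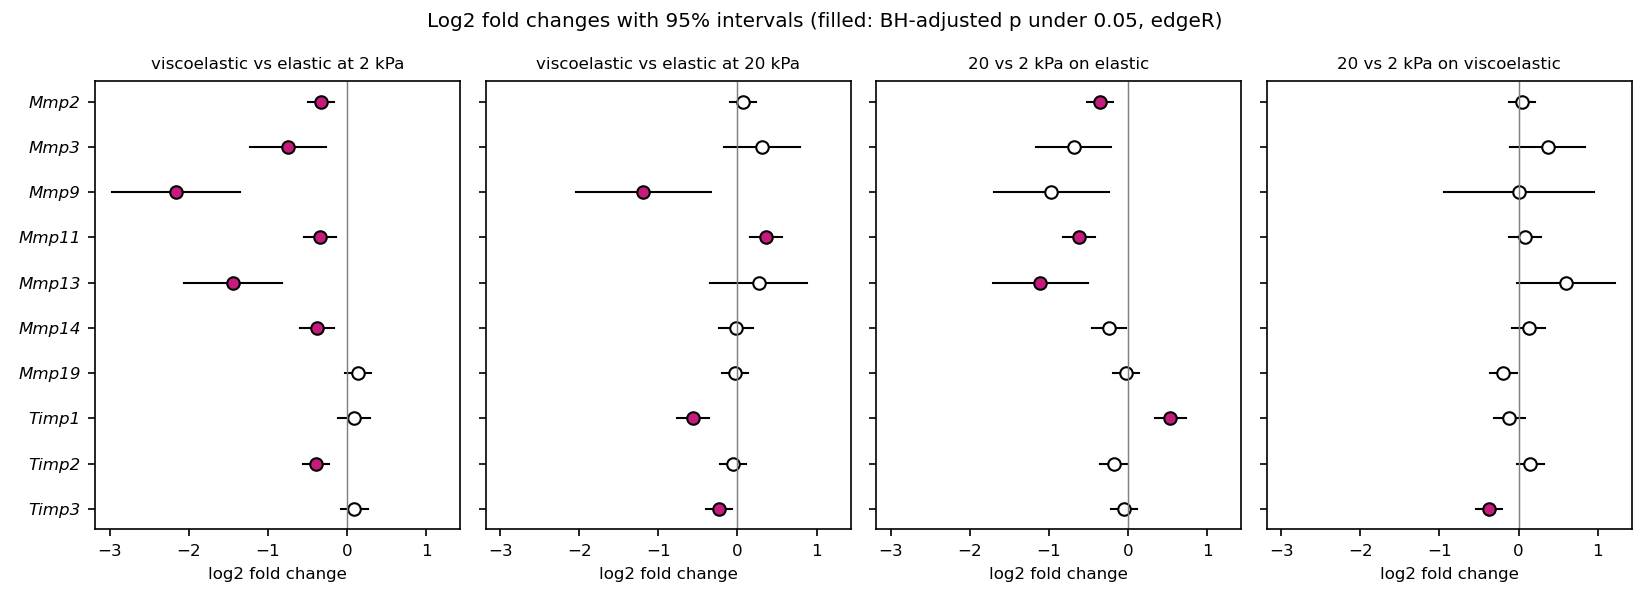
Log2 fold changes (x axis) of the 10 genes with 95% confidence intervals, for viscoelastic against elastic gels at 2 and at 20 kPa and for 20 against 2 kPa on each type of gel; filled points passed an edgeR adjusted p of 0.05. The first panel has 7 filled points, all to the left of 0, and the last has 1, Timp3.

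Mmp13 is the interstitial collagenase of rodents and cleaves fibrillar collagens, type II collagen of cartilage among them. The gene lies at chr9:7272514-7283331 on the plus strand of mm10, on the same chromosome as Mmp3 (chr9:7445822-7455975, plus strand), whose product cleaves proteoglycans and other matrix proteins and can activate other MMP proenzymes. Their promoters are shown because these genes had the steepest falls among the well-counted members, and that of Timp1, which moved otherwise, is set beside them. The promoters shown were thus picked after the results were seen, so they cannot link a motif to a fall. Each line gives the 150 bases before the start of transcription annotated in RefSeq, on the plus strand of GRCm38.p6. Capitals mark matches to TGANTCA, a motif bound by AP-1 factors and searched on both strands.
Mmp13, chr9:7272364-7272513: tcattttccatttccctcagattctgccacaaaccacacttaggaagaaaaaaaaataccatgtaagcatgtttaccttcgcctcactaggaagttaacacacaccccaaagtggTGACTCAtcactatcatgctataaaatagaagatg
Mmp3, chr9:7445672-7445821: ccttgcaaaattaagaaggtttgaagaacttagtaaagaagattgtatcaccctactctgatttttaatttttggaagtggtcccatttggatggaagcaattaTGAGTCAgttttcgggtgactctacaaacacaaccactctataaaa
Timp1, chrX:20870016-20870165: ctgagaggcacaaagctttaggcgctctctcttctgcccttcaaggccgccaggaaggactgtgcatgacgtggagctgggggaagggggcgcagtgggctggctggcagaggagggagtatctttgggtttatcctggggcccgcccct

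Promoter windows were at hand for 7 of the 10 members. Over the 250 bases before the start, TGANTCA matched 1 time in Mmp13, with its first base 35 bases before the start, and 1 time in Mmp3, 46 bases before. The windows of Mmp11, Mmp14, Timp1, Timp2 and Timp3 held no match, and 6.75% of all 32851 windows of that length held one. Among the genes without a match, Mmp11, Mmp14 and Timp2 were also called lower on the soft viscoelastic gel. Mmp2 and Mmp9 were called lower there too and had no window. Whether the motif had a part in any of the falls was not tested. The letters TATAAA, the core of a TATA box, lay 16 bases before the start of Mmp13 and 7 before that of Mmp3, in none of the other 5, and in 12.4% of all windows, and did not overlap the first motif. Distances are counted from the annotated start, and the start used in these cells was not measured. These are matches of letters in a window, and no binding was measured in the counts.

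On 2-kPa elastic gels Mmp13 read 32.2, 31.9 and 26.5 CPM, and on 20-kPa elastic gels 13.6, 9.97 and 18.6. The 2-kPa viscoelastic samples gave 5.80, 16.4 and 11.3 CPM and the 20-kPa viscoelastic samples 14.3, 23.0 and 13.3. Only the 2-kPa elastic group stood clear of the others, while the remaining 3 groups overlapped one another in order of their means. Mmp13 on 2-kPa viscoelastic gels was 0.369 times its elastic level (11.2 ± 5.29 against 30.2 ± 3.21 CPM, SD, n = 3; log2 fold change -1.44 ± 0.289 SE, edgeR adjusted p = 0.0033), a call that stood in each of 12 fits without a sample. On elastic gels it fell with stiffness by 1.11 ± 0.283 on the log2 scale (edgeR adjusted p = 0.0175), a call lost without replicate 1 or 2 of the 2-kPa elastic or replicate 2 of the 20-kPa elastic group (adjusted p up to 0.0756). On viscoelastic gels the stiffness difference was 0.60 with a 95% interval of -0.025 to 1.22 (edgeR adjusted p = 0.284), and the difference between the gel types, 1.71 ± 0.407, passed the test (edgeR adjusted p = 0.0195).

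Mmp3 followed a like order with a smaller change. Its levels were 182, 144 and 172 CPM on 2-kPa elastic gels and 107, 82.7 and 119 CPM on 20-kPa elastic gels. The viscoelastic samples ran from 70.0 to 126 CPM at 2 kPa and from 95.4 to 181 CPM at 20 kPa, where replicate 2 alone reached the 2-kPa elastic levels. Mmp3 fell on the 2-kPa viscoelastic gel by 0.75 ± 0.224 on the log2 scale (edgeR adjusted p = 0.0288), and the call was lost without replicate 1 or 3 of either group (adjusted p up to 0.106) and under DESeq2's Wald test (adjusted p = 0.0548). Its lower level on 20-kPa elastic gels (log2 fold change -0.69 ± 0.224, edgeR adjusted p = 0.0532) and its interaction (1.06, adjusted p = 0.0551) stayed just outside the threshold. At 20 kPa the gel types gave 0.31 for Mmp3 and 0.27 for Mmp13, neither called (adjusted p = 0.304 and 0.505), and without replicate 2 of the viscoelastic group these were -0.028 and -0.022.

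**Figure D3:**
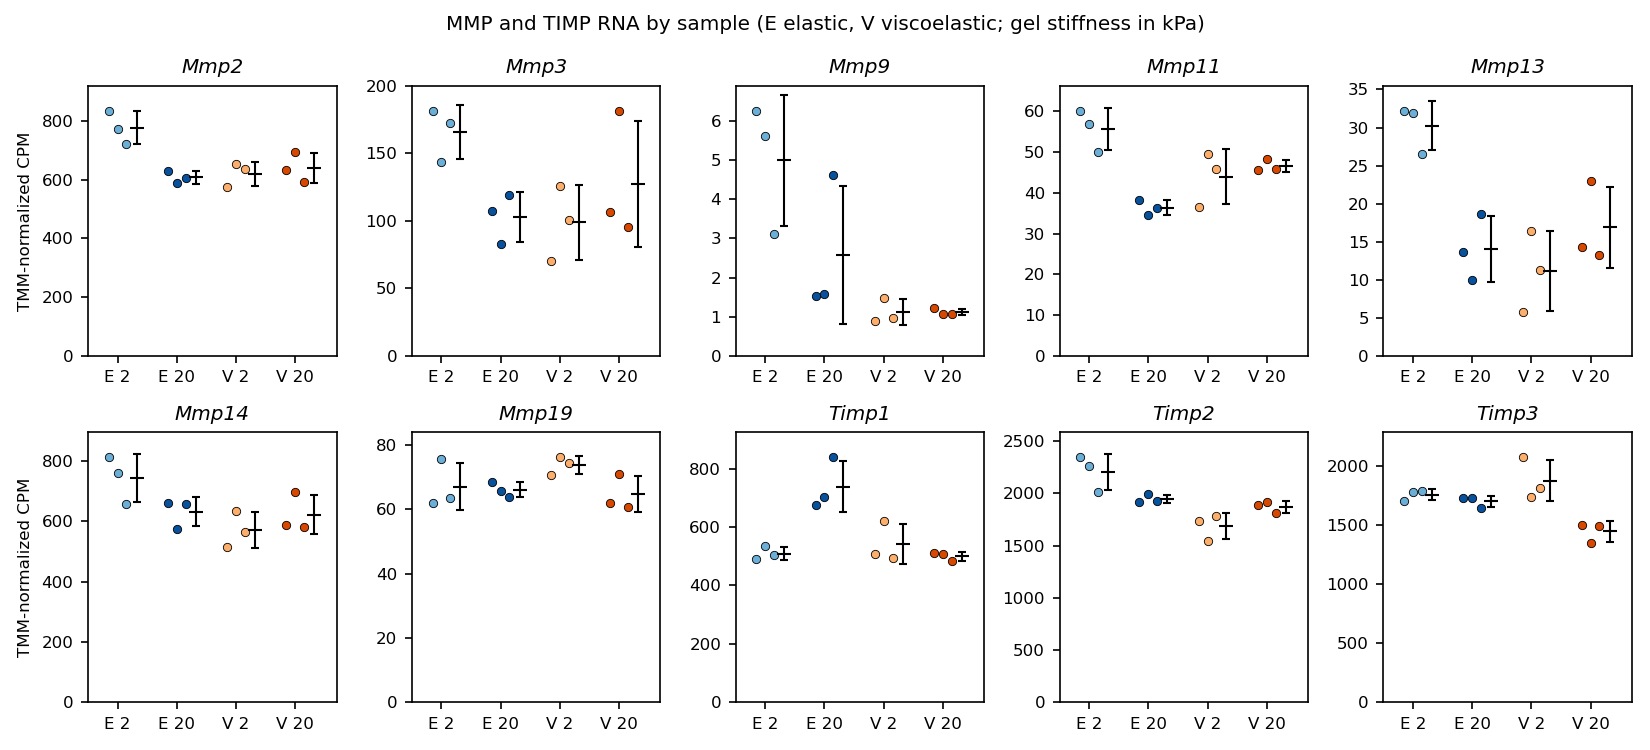
TMM-normalized CPM of each gene in each of the 12 samples (y axis from 0), by gel type and stiffness, with the mean and SD of 3 samples beside the points. Mmp13 at 2 kPa on elastic gels (26.5 to 32.2) and Timp1 at 20 kPa on elastic gels (674 to 839) lie above all other groups, and Mmp9 replicate 3 on 20-kPa elastic gels (4.61) lies far above the other 2 of its group.

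Mmp9 (chr2:164940780-164955850, plus strand) had the largest fold change of the 10 genes and the fewest reads. It had 263, 229 and 113 reads on 2-kPa elastic gels, 66, 69 and 187 on 20-kPa elastic gels, 38, 62 and 41 on 2-kPa viscoelastic and 52, 45 and 43 on 20-kPa viscoelastic gels. In CPM these were 6.26, 5.61 and 3.10, then 1.54, 1.57 and 4.61, then 0.888, 1.49 and 0.978, then 1.22, 1.06 and 1.08. All 6 viscoelastic samples lay below the 6 elastic ones, and the elastic samples spread over 1.54 to 6.26 CPM. At the spread common to all genes, counting noise equals that spread at 178 counts. Mmp9 averaged 101, and its own spread between replicates was wider, with a biological coefficient of variation of 29.8%. At 2 kPa the viscoelastic level was 0.223 times the elastic level (log2 fold change -2.16 ± 0.380 SE, edgeR adjusted p = 0.00144), and at 20 kPa 0.438 times (-1.19 ± 0.401, edgeR adjusted p = 0.0331).

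The Mmp9 result at 20 kPa turned on 1 library. Without replicate 3 of the 20-kPa elastic group its log2 fold change was -0.48 (edgeR adjusted p = 0.281), and it was also lost without any 1 replicate of the 20-kPa viscoelastic group and with a replicate block (adjusted p = 0.0557). Without that same replicate 3, the fall of Mmp9 with stiffness on elastic gels moved from -0.97 (adjusted p = 0.073) to -1.69 (edgeR adjusted p = 0.00184) and its interaction from 0.97 (adjusted p = 0.334) to 1.69 (adjusted p = 0.0226). Macrophages also express Mmp9. The leukocyte markers Ptprc (2 to 24 counts), Adgre1 (0 to 8), Itgam (0 to 2) and Tyrobp (0 to 3) were near 0. Ptprc averaged 0.170, 0.419, 0.103 and 0.192 CPM in the 2-kPa elastic, 20-kPa elastic, 2-kPa viscoelastic and 20-kPa viscoelastic groups. In replicate 3 of the 20-kPa elastic group Ptprc (0.592) and Cd14 (4.83) were highest of all samples, and Lyz2 (0.986) and Csf1r (0.764) lowest of their group. Cd68, a lysosomal glycoprotein rich in macrophages, read 6.98, 6.02 and 4.70 CPM on 2-kPa elastic gels and 3.34, 3.12 and 5.45 on 20-kPa elastic gels. It read 3.72, 4.32 and 3.89 CPM on 2-kPa viscoelastic and 3.04, 3.60 and 2.83 on 20-kPa viscoelastic gels. Of the others, Cd14, Lyz2 and Csf1r did not have the order of Cd68. In the same order of groups Cd14 averaged 3.79, 4.13, 4.39 and 3.57 CPM, Lyz2 1.06, 1.24, 1.44 and 1.29, and Csf1r 0.923, 0.978, 0.964 and 1.03. Summed over the 8 leukocyte markers the groups ran from 10.2 to 13.2, from 9.72 to 12.6, from 10.2 to 12.1 and from 8.30 to 10.4 CPM in that order. Their part in the Mmp9 result was not tested.

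Mmp2 (chr8:92827291-92853420, plus strand) was counted at 23643 reads or more in each sample. It stood at 836, 774 and 721 CPM on 2-kPa elastic gels and at 631, 589 and 604 CPM on 20-kPa elastic gels. The viscoelastic samples gave 575, 652 and 635 CPM at 2 kPa and 632, 695 and 593 CPM at 20 kPa. The 2-kPa elastic group was again apart from the other 3 groups, which overlapped. Mmp2 fell by 0.32 ± 0.0778 on the log2 scale on the 2-kPa viscoelastic gel (edgeR adjusted p = 0.00924), although without replicate 1 of the 2-kPa elastic group its adjusted p was 0.057, and by 0.35 ± 0.0778 with stiffness on elastic gels (edgeR adjusted p = 0.0076). At 20 kPa the gel types differed by 0.074 with a 95% interval of -0.091 to 0.24. The interaction of Mmp2, 0.40 ± 0.110 (edgeR adjusted p = 0.0385), stood in 3 of 12 fits without a sample and was lost with a replicate block (adjusted p = 0.0625); the 3 were those without replicate 3 of the 2-kPa elastic, replicate 2 of the 2-kPa viscoelastic or replicate 3 of the 20-kPa viscoelastic group.

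Mmp14 (chr14:54431612-54445364, plus strand) and Timp2 (chr11:118301069-118355740, minus strand) act on the Mmp2 proenzyme together. Mmp14 read 813, 759 and 658 CPM on 2-kPa elastic gels, 514, 633 and 563 CPM on 2-kPa viscoelastic gels, and 576 to 697 CPM in the 6 samples at 20 kPa. It fell on the 2-kPa viscoelastic gel by 0.38 ± 0.100 on the log2 scale (edgeR adjusted p = 0.0146), a call lost without replicate 1 (adjusted p = 0.0814) or replicate 2 (0.0505) of the 2-kPa elastic group. That call was also lost with a replicate block and length and GC correction (edgeR adjusted p = 0.0621). At 20 kPa the gel types differed by -0.021 with a 95% interval of -0.23 to 0.19, a value whose sign turned when libraries were scaled by total counts alone (0.016). Its mean viscoelastic effect was -0.20 (edgeR adjusted p = 0.0336), and stood in 4 of 12 fits without a sample, those without replicate 3 of the 2-kPa elastic or replicate 2 of any other group.

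Timp2 had no overlap between neighbouring groups, though no pair of neighbours passed the test. It read 2346, 2261 and 2013 CPM on 2-kPa elastic gels and 1918, 1993 and 1924 CPM on 20-kPa elastic gels. The 20-kPa viscoelastic samples followed at 1891, 1912 and 1806 CPM and the 2-kPa viscoelastic samples at 1731, 1542 and 1781 CPM. Thus no group overlapped its neighbour in the order of means, and the closest samples at 20 kPa lay at 1912 and 1918 CPM. Stiffness was not called on elastic (edgeR adjusted p = 0.14) or on viscoelastic gels (0.322). How many of all tested genes had such an order was not counted. The fall on viscoelastic gels at 2 kPa was 0.39 ± 0.0788 on the log2 scale (edgeR adjusted p = 0.00352), while at 20 kPa the difference of -0.057 did not pass (95% interval -0.22 to 0.11, adjusted p = 0.612). Timp2 averaged over stiffness was lower on viscoelastic gels by 0.22 (edgeR adjusted p = 0.0054), and its interaction of 0.33 was not called (adjusted p = 0.0857). Cep295nl, a gene on the same strand within Timp2, had 151 to 320 counts and shared no exonic bases with it.

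Mmp11 (chr10:75923222-75936496, minus strand) encodes stromelysin-3, which is activated inside the cell by furin-type proteases. Levels were 60.1, 56.9 and 49.97 CPM on 2-kPa elastic gels and 38.2, 34.5 and 36.2 CPM on 20-kPa elastic gels. The 2-kPa viscoelastic samples gave 36.5, 49.4 and 45.9 CPM and the 20-kPa viscoelastic samples 45.5, 48.3 and 45.7 CPM. The viscoelastic samples thus lay below the elastic ones at 2 kPa and above them at 20 kPa. Mmp11 was lower by 0.34 ± 0.0940 on the log2 scale at 2 kPa (edgeR adjusted p = 0.0191, up to 0.0976 without 1 sample) and higher by 0.36 ± 0.0948 at 20 kPa (edgeR adjusted p = 0.00987). The call at 2 kPa was lost without replicate 1 or 2 of the elastic or replicate 1 of the viscoelastic group. It was also lost with only the samples compared (edgeR adjusted p = 0.0557). Its fall with stiffness on elastic gels, 0.62 ± 0.0947 (edgeR adjusted p = 0.000726), and its interaction, 0.70 ± 0.134 (edgeR adjusted p = 0.00503), stood without any 1 of the samples. Chchd10, on the opposite strand, shared 155 exonic bases with Mmp11 (5.58% of its exon length) and had 10 to 42 counts against at least 1469 for Mmp11.

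Mmp19 (chr10:128790910-128800824, plus strand), a secreted MMP with basement membrane substrates, was the member that moved least. It ranged from 60.7 to 76.1 CPM over the 12 samples, and no comparison called it. The 2-kPa viscoelastic group had its highest mean (73.7 ± 2.77 CPM, SD, n = 3), and the largest difference was that of -0.19 between 20 and 2 kPa on viscoelastic gels (95% interval -0.36 to -0.026, edgeR adjusted p = 0.195). Tmem198b on the opposite strand shared 789 bases, 22.33% of the exon length of Mmp19, and had 461 to 655 counts. The strand setting of the counting is not stated, so reads in shared bases could count for either gene.

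Timp1 (chrX:20870166-20874735, plus strand), a secreted inhibitor of most soluble MMPs, went the other way. Its levels were 489, 535 and 503 CPM on 2-kPa elastic gels and 674, 702 and 839 CPM on 20-kPa elastic gels. On viscoelastic gels it read 509, 622 and 494 CPM at 2 kPa and 511, 508 and 482 CPM at 20 kPa. The stiff elastic gel was the group apart, and the other 3 overlapped. Timp1 rose with stiffness on elastic gels to 1.45 times its 2-kPa level (log2 fold change 0.54 ± 0.0943 SE, edgeR adjusted p = 0.00184) and was 0.678 times its elastic level on the 20-kPa viscoelastic gel (-0.56 ± 0.0943, edgeR adjusted p = 0.000555). At 2 kPa the gel types differed by 0.090 (95% interval -0.11 to 0.29), a sign that turned under a length and GC correction (-0.035), and on viscoelastic gels stiffness made a difference of -0.11 (95% interval -0.32 to 0.086). The interaction was -0.65 ± 0.133 (edgeR adjusted p = 0.00804). Both called comparisons and the interaction stood without any 1 of the samples. Syn1, whose span on the opposite strand holds Timp1, shared no exonic bases with it and had 43 to 80 counts.

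Timp3 (chr10:86300372-86349506, plus strand) binds to the matrix and also inhibits ADAM proteases. It was lowest on 20-kPa viscoelastic gels, at 1504, 1346 and 1488 CPM, and read 2076, 1740 and 1816 CPM on the 2-kPa viscoelastic gel. The elastic samples stayed between 1645 and 1785 CPM at both stiffnesses. Every 20-kPa viscoelastic sample was therefore below all 9 others. Timp3 fell with stiffness on viscoelastic gels by 0.38 ± 0.0785 on the log2 scale (edgeR adjusted p = 0.0286), and at 20 kPa it was 0.23 ± 0.0784 lower than on elastic gels (edgeR adjusted p = 0.0323). The first call stood in 8 of 12 fits without a sample. It was also lost with a replicate block and with only the samples compared (edgeR adjusted p up to 0.112). The second call was lost without replicate 1 or 2 of the 20-kPa elastic or replicate 2 or 3 of the 20-kPa viscoelastic group (adjusted p up to 0.127), with total counts alone (0.0582) and with a length and GC correction (0.111). The interaction, -0.33, was not called (adjusted p = 0.0876). Syn3, on the opposite strand, shared 1733 bases with Timp3 (21.28% of its exon length) and had 41 to 74 counts against at least 57165.

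Set against each other per kilobase, the summed RNA of the 7 MMPs was 0.368 ± 0.0234 of that of the 3 TIMPs in the 2-kPa elastic group (SD, n = 3) and 0.248 ± 0.0201 in the 20-kPa elastic group, and it was 0.295 ± 0.0305 at 2 kPa and 0.333 ± 0.0433 at 20 kPa in the viscoelastic groups. These are ratios of RNA levels, given as a description. Timp1 made up 42.3% of the TIMP sum on 2-kPa elastic and 53.9% on 20-kPa elastic gels, with 47.8% and 46.1% on 2-kPa and 20-kPa viscoelastic gels. The ratio of Mmp14 to Timp2 averaged 0.220 ± 0.00640 in the 2-kPa elastic and 0.212 ± 0.0205 in the 20-kPa elastic group (SD, n = 3). It averaged 0.223 ± 0.0396 in the 2-kPa viscoelastic and 0.217 ± 0.0185 in the 20-kPa viscoelastic group. These means lay close together, but the 2-kPa viscoelastic samples ran from 0.194 to 0.268. Mmp2 kept 46.2% to 49.2% of the MMP sum in the group means. The group means of the ratio of Mmp3 to Timp1 ranged more widely, from 0.0689 on 20-kPa elastic to 0.162 on 2-kPa elastic gels.

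Replicates of the members varied unequally. The biological coefficient of variation was 29.8% for Mmp9, 24.7% for Mmp13 and 19.0% for Mmp3, against 6.81% to 8.83% for the other 7 and a median of 7.22% over all tested genes. Mmp3 and Mmp13 had their highest sample in the same replicate in 4 of 4 groups, as did Mmp2 and Mmp14, pairs that were picked after their values were seen. Genes most like Mmp9 over the 12 samples among 14541 others, by Pearson's r of log2 CPM, were Tfrc (0.979), Arid1a (0.971) and Cilp (0.968), which encode the transferrin receptor, a chromatin remodelling subunit and a cartilage matrix protein. Most like Timp2 were Hc (0.964), Nrp2 (0.958) and Jade2 (0.956). The points share their libraries and the differences between the 4 groups, so these values only describe a common order of samples.

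Of 17 other MMP and TIMP genes, 9 did not pass the filter on low counts and are too low to judge: Mmp1a, Mmp1b, Mmp7, Mmp10, Mmp12, Mmp20, Mmp21, Mmp24 and Mmp25, with at most 19 counts in a sample. Of the 8 tested, the membrane protease Mmp16 had 1813 to 2224 counts and Mmp23 927 to 1771, Mmp27 had 2 to 15, and their median log2 fold change on viscoelastic gels was -0.029 at 2 kPa and 0.28 at 20 kPa. At 2 kPa the viscoelastic gel had more Mmp23 (37.2 ± 5.19 against 24.1 ± 1.97 CPM, SD, n = 3; log2 fold change 0.63 ± 0.107, edgeR adjusted p = 0.0012) and less of the membrane protease Mmp15 (-0.48 ± 0.149, adjusted p = 0.0326), the latter lost with total counts alone, with a length and GC correction and without replicate 1 or 3 of the elastic or replicate 1 of the viscoelastic group. At 20 kPa Timp4 (1.11 ± 0.207, edgeR adjusted p = 0.00108) and Mmp15 (0.91 ± 0.153, edgeR adjusted p = 0.000579) were higher on viscoelastic gels, and Mmp17 was lower (-0.63, adjusted p = 0.0304, lost without replicate 1 or 3 of either group). Of all tested genes, 8.77% were higher and 11.1% lower at 2 kPa, and 17.4% and 16.1% at 20 kPa. Timp4 and Mmp15 fell with stiffness on elastic gels by 1.00 and 0.92 on the log2 scale, beside 7.14% of all tested genes. None of the 8 was called between stiffnesses on viscoelastic gels, beside 2.28%. The interactions of Timp4 (1.60) and Mmp15 (1.39) were called (edgeR adjusted p = 0.00336 and 0.00114), beside 7.56%. Timp4 had 36 to 120 counts and Mmp15 67 to 146, both with a mean under the 178 at which counting noise equals the spread common to all genes.

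Enzymes that activate MMPs and proteins that hold them in check were read from a list of 18 genes, 15 of them tested, whose median log2 fold change on viscoelastic gels was -0.059 at 2 kPa and -0.10 at 20 kPa. At 2 kPa the proprotein convertases Pcsk5 and Pcsk6 were higher on the viscoelastic gel (log2 fold changes 0.50 and 0.43, edgeR adjusted p = 0.0067 and 0.000978), and the serpin Serpine2 and the convertase Furin, which activates Mmp14 and Mmp11, were lower (-0.47 and -0.29, adjusted p = 0.00105 and 0.00764), Furin not under a length and GC correction (adjusted p up to 0.145). Of all tested genes 8.77% were higher and 11.1% lower there. At 20 kPa 2 were higher, Thbs2 (0.27) and the membrane-bound MMP inhibitor Reck (0.23), and 6 were lower, beside 17.4% and 16.1% of all tested genes. The largest of the 6 falls was that of Cd44, a hyaluronan receptor that can hold Mmp9 at the cell surface, from 831 ± 192 to 478 ± 17.4 CPM (SD, n = 3; -0.80 ± 0.134, edgeR adjusted p = 0.00054). The Thbs2 call was lost without replicate 2 or 3 of the 20-kPa elastic or replicate 2 of the 20-kPa viscoelastic group, and the Reck call stood in 4 of 12 fits, those without replicate 1 of either elastic group or replicate 1 or 2 of the 2-kPa viscoelastic group. With stiffness on elastic gels 5 rose, Thbs1 (0.58), Cd44 (0.49), the urokinase receptor Plaur (0.48), urokinase itself, Plau (0.43), and Pcsk6 (0.43), and Serpine2 and Furin fell (-0.31 and -0.23), beside 6.81% of all tested genes higher and 7.14% lower. The rises of Cd44 and Plaur were lost without any 1 replicate of the 2-kPa elastic or replicate 3 of the 20-kPa elastic group, and that of Plau without replicate 2 of the 2-kPa elastic or replicate 3 of the 20-kPa elastic group. The fall of Serpine2 was lost without replicate 1 of the 2-kPa elastic or replicate 1 or 2 of the 20-kPa elastic group, and that of Furin without replicate 1 or 2 of the 2-kPa elastic or any 1 replicate of the 20-kPa elastic group. On viscoelastic gels Pcsk6 and Serpine2 fell with stiffness (-0.39 and -0.33), beside 0.695% of all tested genes lower. Pcsk6 was not called without replicate 1 or 3 of the 20-kPa viscoelastic group. Serpine2 was called in 4 of 12 fits, those without replicate 1 or 3 of the 2-kPa elastic, replicate 3 of the 20-kPa elastic or replicate 3 of the 2-kPa viscoelastic group. The interaction was called for Thbs2 (0.40), Pcsk6 (-0.82) and Thbs1 (-0.71), beside 4.45% of all tested genes higher and 3.12% lower. That of Thbs2 stood in 5 of 12 fits, those without replicate 1 of the 20-kPa elastic, replicate 2 or 3 of the 2-kPa viscoelastic or replicate 1 or 3 of the 20-kPa viscoelastic group.

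Collagen is also taken up and degraded by other routes, read from 10 genes of which 8 were tested. Of these, 6 fell on the 2-kPa viscoelastic gel and none rose, beside 11.1% of all tested genes lower and 8.77% higher. The list median was -0.48 on the log2 scale against -7.5e-05 over all genes. Among the 6, Ctsk stayed called in 8 of 12 fits without a sample (edgeR adjusted p up to 0.106). Ctsb was lost without replicate 1 of the 2-kPa elastic group (edgeR adjusted p = 0.0756). Lrp1 was lost with a replicate block and length and GC correction (edgeR adjusted p = 0.063). The largest fall was that of Fap, a membrane serine protease that cleaves gelatin, from 24.5 ± 3.67 to 7.68 ± 1.80 CPM (SD, n = 3; -1.67 ± 0.189, edgeR adjusted p = 6.29e-05). Mrc2, the endocytic collagen receptor, was the 1 gene called at 20 kPa, beside 33.5% of all tested genes. Its call (-0.40, edgeR adjusted p = 0.00988) was lost without replicate 3 of either group. On elastic gels Fap fell with stiffness (-1.03, edgeR adjusted p = 0.00185), 2 others fell with it (Ctsb and Mfge8, -0.38 and -0.46), and Pdpn rose (0.50). Of all tested genes 7.14% fell and 6.81% rose in that comparison. The fall of Ctsb was lost without replicate 1 of the 2-kPa elastic or replicate 2 or 3 of the 20-kPa elastic group. None was called with stiffness on viscoelastic gels, beside 2.28% of all tested genes. The interactions of Fap (1.76, edgeR adjusted p = 0.001) and Ctsk (0.50) were called, beside 7.56%. That of Ctsk stood in 3 of 12 fits, those without replicate 3 of either elastic group or replicate 2 of the 2-kPa viscoelastic group.

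**Figure D4:**
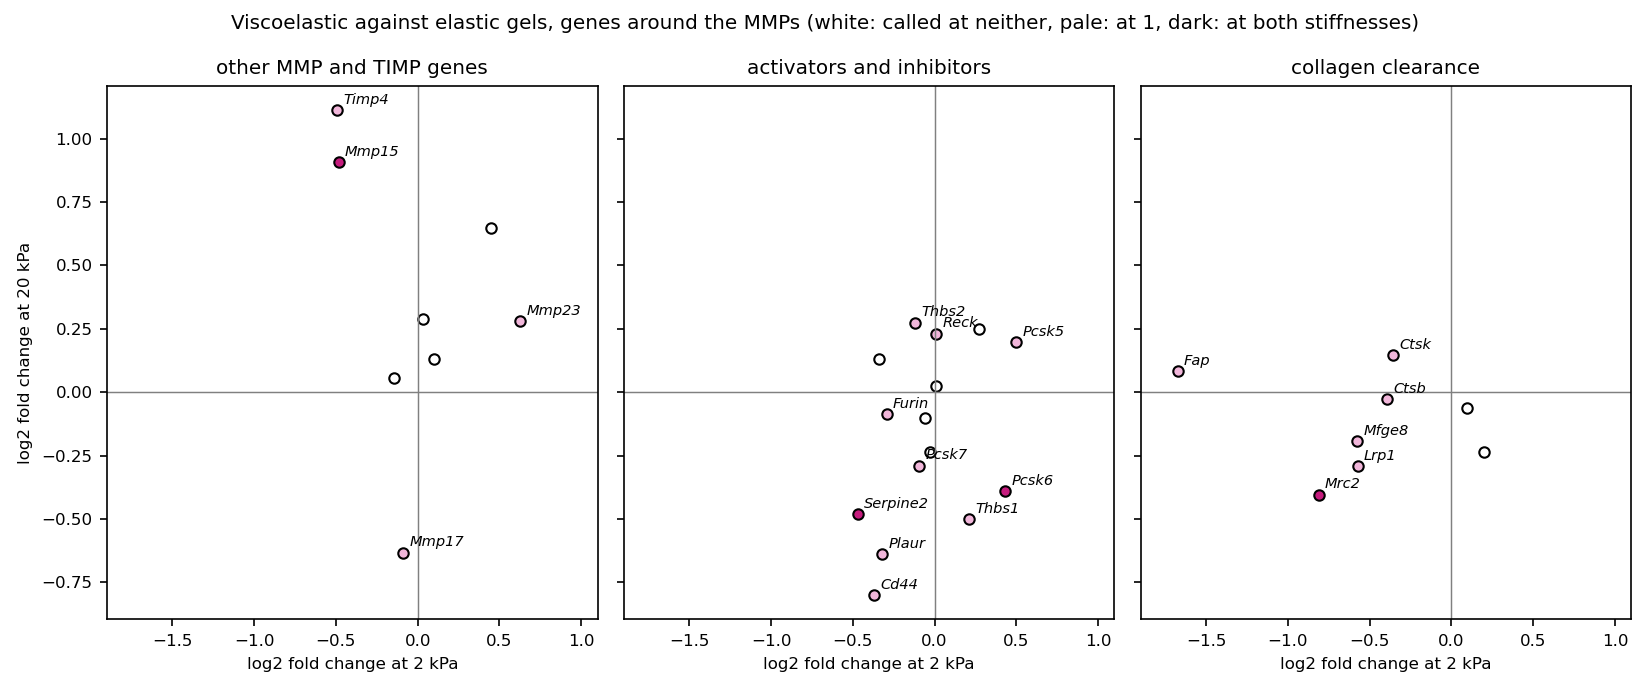
Log2 fold change of viscoelastic against elastic gels at 2 kPa (x axis) and at 20 kPa (y axis) for the tested genes of 3 lists: other MMP and TIMP genes, activators and inhibitors, and collagen clearance; white points were called at neither stiffness, pale ones at 1 and dark ones at both. Fap lies far to the left (-1.67 at 2 kPa), Cd44 at the bottom (-0.80 at 20 kPa), and Timp4 at the top (1.11 at 20 kPa).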

How the data were processed

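RNA of 12 samples (4 gel groups of 3) was sequenced. Per the labels and the methods, the authors trimmed reads with Trimmomatic, mapped them to mm10 with STAR and assigned them to GENCODE genes with featureCounts; the deposited values are raw counts in 1 table. The annotation release, the strand setting and the treatment of multi-mapping reads are not given in the sources used here. Columns were matched to samples by title.

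Of the genes, 14542 passed edgeR's filterByExpr with the groups (a count of 10, a total of 15, a large group size of 10). Libraries were scaled by TMM (factors 0.968 to 1.03). The quasi-likelihood test of edgeR (4.0.16, R 4.3.3) used 1 fit of the 12 samples with the group means as coefficients (biological coefficient of variation 7.50%), and Benjamini-Hochberg adjusted p under 0.05 over all tested genes was called. Standard errors are the log2 fold change divided by the root of F. The text names all 10 members and, from the lists, the largest called rise and fall of each comparison and all genes of counts of 5 or fewer. The members and lists were chosen with earlier results of these data known; 1 gene of a list is not reported here.

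Positions, exon lengths and overlaps came from GENCODE M21; 27814 symbols matched, with 2695 more after replacing punctuation. Length and GC content were known for 14126 tested genes (97.1%) and were corrected with splines (mgcv 1.9.3). Promoters came from RefSeq. Alternatives were DESeq2 (1.42.0) size factors and its Wald test, total counts, every gene with a count, only the samples compared, a replicate block, the length and GC correction and leaving out each sample. On simulated counts for viscoelastic against elastic gels at 2 kPa (14405 genes), 17.9%, 82.1% and 87.9% of genes changed by 0.25, 0.5 and 1 on the log2 scale were called, and 5 unchanged genes. Every simulated gene had the common biological coefficient of variation of 7.50%. These shares therefore do not hold for Mmp3, Mmp13 and Mmp9, at 19.0%, 24.7% and 29.8%. Intervals of fold changes cover the spread between these samples.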

Additional observations from a re-analysis of the deposited data

Results flagged for a closer look

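For 4 genes the effect of stiffness differed between the gel types by a test of the difference itself, the interaction in the edgeR fit. The effect on viscoelastic minus that on elastic gels was 0.40 for Mmp2, 0.70 for Mmp11, 1.71 for Mmp13 and -0.65 for Timp1 on the log2 scale (edgeR adjusted p = 0.0385, 0.00503, 0.0195 and 0.00804), beside 7.56% of all tested genes called. Of 7 tested cartilage markers, 4 were called higher in the same test: Col9a1 (1.01), Col11a2 (1.06), Chad (0.84) and Cnmd (0.79). Their part in the members' result was not tested. Those of Mmp11, Mmp13 and Timp1 stayed called in 12 of 12 fits without a sample, that of Mmp2 in 3 of 12. Groups of 3 samples were too small for a separate check on outlying samples. Dependence on single samples was read only from the fits without 1 sample.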

How the results depend on the processing

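Over members and comparisons, 419 of 460 values under alternatives kept their direction and side of the threshold, 17 lost the call, 12 gained it and 12 turned sign, and of 720 values without a sample 639, 48, 12 and 21 did. With stiffness on viscoelastic gels (1 member called), 2 were called with every gene that had a count, and 0 with a replicate block, with a block and length and GC correction, and with only the samples compared, where all genes called were 653, 154, 72 and 38 against 331, and 171 with length and GC correction alone and 757 with DESeq2's Wald test. Viscoelastic against elastic gels at 20 kPa gave 2 members with the block and length and GC correction, 3 with total counts, the block or the length and GC correction alone, and 4 otherwise.

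Leaving out samples gave 3 to 7 members for viscoelastic against elastic gels at 2 kPa, 2 to 4 at 20 kPa, 0 to 1 with stiffness on viscoelastic gels and 3 to 7 for the mean viscoelastic effect. All values that turned sign had not been called. Mmp9 with stiffness on viscoelastic gels was -0.0045 with DESeq2 size factors, -0.0036 with every gene, -0.015 with only the samples compared and -0.0056 with DESeq2's Wald test. At 20 kPa on viscoelastic against elastic gels, Mmp14 was 0.016 with total counts, 0.035 with length and GC correction and 0.029 with the block added, and Mmp19 was 0.0037 with total counts. Timp1 at 2 kPa was -0.035 with length and GC correction and -0.037 with the block added, and the mean viscoelastic effect of Mmp11 -0.024 and -0.025. Without 1 sample, sign turned for Mmp3 (range -0.028 to 0.48), Mmp13 (-0.022 to 0.52), Mmp14 (-0.11 to 0.027) and Mmp19 (-0.11 to 0.010) between gel types at 20 kPa, Timp1 (-0.021 to 0.15) at 2 kPa, Mmp19 (-0.075 to 0.073) with stiffness on elastic gels, Mmp2 (-0.018 to 0.097), Mmp9 (-0.14 to 0.26) and Mmp11 (-0.034 to 0.17) on viscoelastic gels, and Mmp11 (-0.038 to 0.066) in the mean viscoelastic effect. The cause was not tested.

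Same-numbered samples share only a number: with group means removed, their levels correlated at -0.025 on average (-0.20 to 0.31), and 7 of 36 correlated best with their own number. With the replicate block, calls of the activators and inhibitors list with stiffness on viscoelastic gels went from 2 to 1 and those of the collagen clearance list in the interaction from 2 to 1. In the first of these lists the block also took 1 higher call each from viscoelastic against elastic gels at 20 kPa (Reck), stiffness on elastic gels (Plaur) and the interaction (Thbs2). Calls of the members were 7, 3, 4, 0, 5 and 3 in the order of the 4 comparisons of groups, the mean viscoelastic effect and the interaction. Of the family's called genes, Mmp9, Mmp15, Mmp17 and Timp4 had mean counts under 178.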
